A study of Rattus norvegicus with 6 samples.

Results

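The genes described here act in the G2 and M phases of the cell cycle, from the kinase that starts mitosis to the proteins that pull the daughter cells apart. They were chosen by name, as 35 symbols of known mitotic function, and all 35 were found among the 22085 genes of the deposited table and passed the filter on low counts with 15776 genes in all. RNA was sequenced from rat amniotic fluid cells collected at embryonic day 18.5 and grown to passage 4 in medium with fetal bovine serum. The control group was 3 libraries from control pregnancies and the preeclampsia group 3 libraries from a preeclampsia model in rats, preeclampsia being the hypertensive disease of late pregnancy. How the model was produced, the strain of the rats and the number of animals behind a library are not given in the sources used here, so p-values measure the spread between these libraries. All 6 cultures shared the tissue, the gestational day and the passage, and the labels call the cells mesenchymal stem cells.

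Cells build up mitotic proteins late in each cycle and destroy most of them as division ends. Cyclin B bound to the kinase CDK1 drives entry into mitosis, Polo and Aurora kinases organise the spindle, the kinetochore joins chromosomes to microtubules, and the anaphase-promoting complex with CDC20 marks cyclin B and securin for degradation. Most of these genes are transcribed as one programme: the DREAM complex represses them in resting cells, and the MuvB core with B-MYB and FOXM1 activates them in G2, through promoter elements named the cell cycle homology region and the CCAAT box. Their messenger RNA is scarce in cells that do not divide, and Ki-67, the product of Mki67, is a standard stain for dividing cells. In bulk RNA, more dividing cells and more of these transcripts per dividing cell cannot be told apart.

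The promoters of the members shared these elements, which the choice of the genes did not use. Of the 35 members 30 had a promoter window in the RefSeq table (build GRCr8), running from 250 bases before to 50 bases after the annotated start, and Aurkb, Ccna2, Foxm1, Tpx2 and Ube2c had none. The letters of the cell cycle homology region (TTTGAA or TTCGAA, either strand) stood in 23 of the 30 members (76.7%), against 21% of all 27457 genes with a window. The CCAAT box (CCAAT, either strand) stood in 23 of the 30 members, against 39.6% of all genes, and 2 or more copies stood in 17 members, against 12.2% of all genes. The 7 members without the homology letters in the window were Aurka, Bub1, Ccnb1, Cenpe, Kif11, Kif20a and Kif2c.

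The homology letters were also placed alike. Of the 31 matches in members, 25 read TTTGAA on the strand of the gene, 4 read TTCAAA and 2 read TTCGAA, which is its own reverse complement. Leaving these last aside, 86.2% of the members' matches lay on the strand of the gene, against 51.2% over all windows. Between -100 and 50 relative to the start lay 74.2% of the members' matches, against 41.4% of the matches in all windows. The E2F-type letters (TTTGGCGC or TTTCGCGC), the FOX-type letters (TGTTTAC) and the TATA-type letters (TATAAA), searched on both strands, each stood in 1 of the 30 members, against 0.892%, 4.13% and 15.3% of all genes.

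Shown are 6 of these promoters, from 150 bases before to 30 bases after the start, 5′ to 3′ on the strand of the gene. Capitals mark the homology letters and the CCAAT boxes on either strand, since these are the elements the members shared.
Mki67, chr1:199952564-199952743, - strand: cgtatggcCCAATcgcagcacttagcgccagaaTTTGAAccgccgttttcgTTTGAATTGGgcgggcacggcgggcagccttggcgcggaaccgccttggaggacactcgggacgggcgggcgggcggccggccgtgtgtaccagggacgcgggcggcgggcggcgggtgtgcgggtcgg
Top2a, chr10:84473064-84473243, - strand: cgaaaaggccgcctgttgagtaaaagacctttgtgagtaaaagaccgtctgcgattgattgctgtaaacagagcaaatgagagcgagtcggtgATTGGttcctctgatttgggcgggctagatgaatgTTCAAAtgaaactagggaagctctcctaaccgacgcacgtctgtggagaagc
Cdk1, chr20:19265143-19265322, + strand: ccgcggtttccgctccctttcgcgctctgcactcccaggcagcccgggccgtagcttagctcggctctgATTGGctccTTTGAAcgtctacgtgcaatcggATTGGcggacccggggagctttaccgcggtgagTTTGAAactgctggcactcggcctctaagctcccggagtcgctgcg
Plk1, chr1:186147508-186147687, + strand: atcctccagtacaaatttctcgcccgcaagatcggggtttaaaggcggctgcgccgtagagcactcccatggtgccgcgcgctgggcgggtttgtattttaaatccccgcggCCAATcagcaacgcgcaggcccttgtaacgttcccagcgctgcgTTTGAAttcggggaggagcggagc
Prc1, chr1:143659331-143659510, + strand: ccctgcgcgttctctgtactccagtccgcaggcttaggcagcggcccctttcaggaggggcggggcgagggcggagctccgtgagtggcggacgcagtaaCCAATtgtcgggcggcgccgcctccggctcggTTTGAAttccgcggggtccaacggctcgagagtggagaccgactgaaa
Cenpf, chr13:103760857-103761036, - strand: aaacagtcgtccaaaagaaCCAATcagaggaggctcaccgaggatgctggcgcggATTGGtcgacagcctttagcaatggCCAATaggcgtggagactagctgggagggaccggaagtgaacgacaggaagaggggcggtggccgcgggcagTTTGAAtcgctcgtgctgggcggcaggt
In Mki67 the homology letters began at -117 and -99, and the second of these shared a base with a CCAAT box. Cdk1 carried them at -72 and -16, each downstream of a CCAAT box. Prc1 carried them at -18 after a CCAAT box at -50, while in Plk1 and Cenpf they began just past the start, at 7 and 3. Top2a read TTCAAA at -22, the reverse complement of the other matches shown.

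In the deposited values, every member stood highest in the same library. Preeclampsia library 1 was the highest of the 6 in all 35 members, against 18.4% of all tested genes. Its FPKM (by name, fragments per kilobase of transcript, scaled to the size of the library) was a median of 4.87 times the mean of preeclampsia libraries 2 and 3, from 2.19 times for Cdc25c to 6.09 times for Kif11. Control libraries 1 and 2 came next: in 34 of 35 members both lay above control library 3 and preeclampsia libraries 2 and 3, and 5.51% of all tested genes showed this order with preeclampsia library 1 on top. The exception was Cdc25c, a phosphatase that activates CDK1, where control library 3 lay between control libraries 1 and 2.

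**Figure D1:**
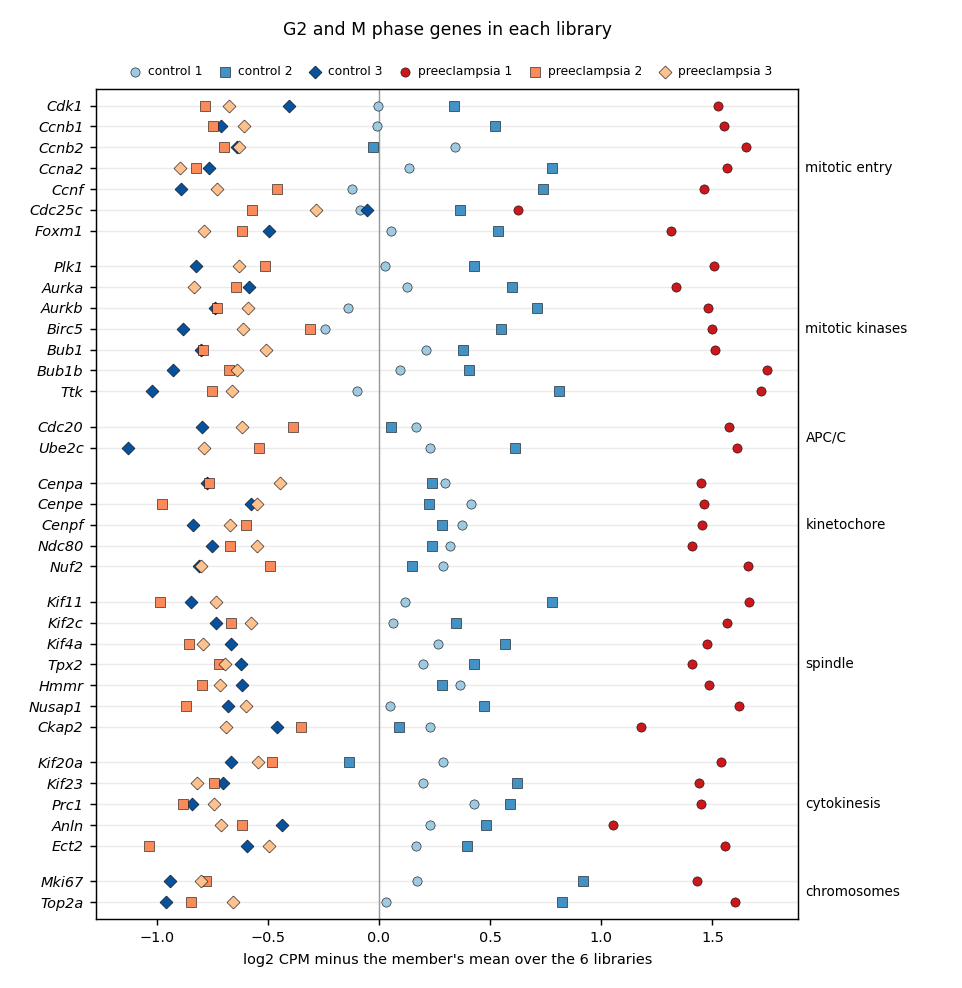
Log2 CPM (counts scaled to library size) of each of the 35 members in each of the 6 libraries, minus that member's mean over the libraries (x axis), with members in rows by role. The red circles of preeclampsia library 1 lie to the right in all 35 rows, and in 34 rows control libraries 1 and 2 stand between it and the other 3 libraries.

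In each of the 7 role groups the mean level was highest in preeclampsia library 1, followed by control libraries 1 and 2 in either order. Averaged over the 35 members, the level was 6.50 log2 CPM (counts scaled to library size) in preeclampsia library 1, 5.17 and 5.47 in control libraries 1 and 2, and 4.31, 4.33 and 4.37 in control library 3 and preeclampsia libraries 2 and 3. The last 3 libraries thus overlapped across the groups, and their range within a member had a median of 0.27 log2 CPM, against 0.51 over all tested genes. Summed without further scaling, the members took 3969 CPM in preeclampsia library 1, 1547 and 2021 in control libraries 1 and 2, and between 843 and 898 in the other 3. The members lie on 14 chromosomes, with at most 6 on 1 of them.

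The libraries were of like size, from 48402185 to 59193961 counts, and a member's own count ran from 265 for Birc5 to 18533 for Mki67. Preeclampsia library 1 did not stand apart in the share of counts from the mitochondrial genome, at 3.31% within a range of 2.82% to 3.67%, or in the 10 most abundant genes, at 11% within 9.77% to 13.3%. The mesenchymal list was tested in all 10 genes, among them Col1a1 at 1900 to 4271 and Vim at 341 to 576 FPKM. It summed to 4462 to 6202 FPKM in the control and 5963 to 7687 in the preeclampsia group. Its genes did not move together: 7 had a fitted log2 fold change above 0 and 3 below. DESeq2 called 1 of them and edgeR 0. Preeclampsia library 1 minus the mean of preeclampsia libraries 2 and 3 ran from -2.80 to 1.28 log2 CPM over these genes. Of the macrophage and blood cell list all 16 genes were tested, only C1qa being listed at 0 in a library. That list summed to 155, 132 and 27.8 FPKM in control libraries 1 to 3 and to 31.3, 456 and 224 in preeclampsia libraries 1 to 3. Preeclampsia library 1, the highest in the mitotic genes, and control library 3, among the low ones, were both low in this list. Preeclampsia libraries 2 and 3, as low as control library 3 in the mitotic genes, were the highest in it. The epithelial list summed to 55.9 FPKM in control library 2 and to between 0.5 and 12.9 in the other 5 libraries. Its keratin gene Krt8 was at 1.12, 37.4 and 8.41 FPKM in the controls and 0.4, 1.22 and 1.35 in the preeclampsia libraries, Krt19 was highest in control library 1 at 2.23 FPKM, and Epcam, Cdh1, Krt18, Krt19, Krt14 and Cldn4 were each listed at 0 in at least 1 library. DESeq2 called both tested epithelial genes, Krt8 and Krt18, and 2 of the 5 tested mesothelial genes, while edgeR called none of them. Of the mesothelial genes, Msln (mesothelin) was at 1.06, 2.03 and 1.76 FPKM in the controls and 17, 11.8 and 20.9 in the preeclampsia libraries (edgeR adjusted p = 0.228), and in it preeclampsia library 1 lay between the other 2. The other 4 tested mesothelial genes had a fitted log2 fold change below 0, down to -3.64, so the list did not rise as a whole. The part of these other cell types in the mitotic levels was not tested.

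Between the groups, no member differed by more than the spread within them. edgeR's quasi-likelihood test called 0 of the 35 members at an adjusted p under 0.05, where it called 0% of all tested genes, and 0 members had an unadjusted p under 0.05, against 9.19% of all genes. DESeq2 called 0 members, against 2.33% of all genes, and limma on log2 FPKM called 0. The groups overlapped in all 35 members, while they did not overlap in 15.6% of all tested genes. The fitted log2 fold change of preeclampsia over control was above 0 in 34 members, against 51.7% of all genes, with a median of 0.39 and a range from -0.07 to 0.69, beside a median of 0.01 over all genes.

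That direction rested on 1 library. Without preeclampsia library 1 the fitted log2 fold change was below 0 in all 35 members, against 51.7% of all genes, with a median of -0.74 and a range from -1.04 to -0.36. Of these 5 had an unadjusted p under 0.05, all lower, against 6.23% of all genes: Cdk1, Cenpe, Kif4a, Hmmr and Anln, named because they passed. None passed the adjusted threshold, the smallest adjusted p by edgeR being 0.338 for Cdk1, where the fit called 0.0127% of all genes. Since preeclampsia library 1 was the highest in every member, leaving it out had to lower each fold change. The p-values of this fit therefore describe the members and do not test them. With all 6 libraries, limma on log2(FPKM + 1), which averages logs, put the median at 0.10 and 23 members above 0, and without control library 3 the edgeR median was 0.11.

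**Figure D2:**
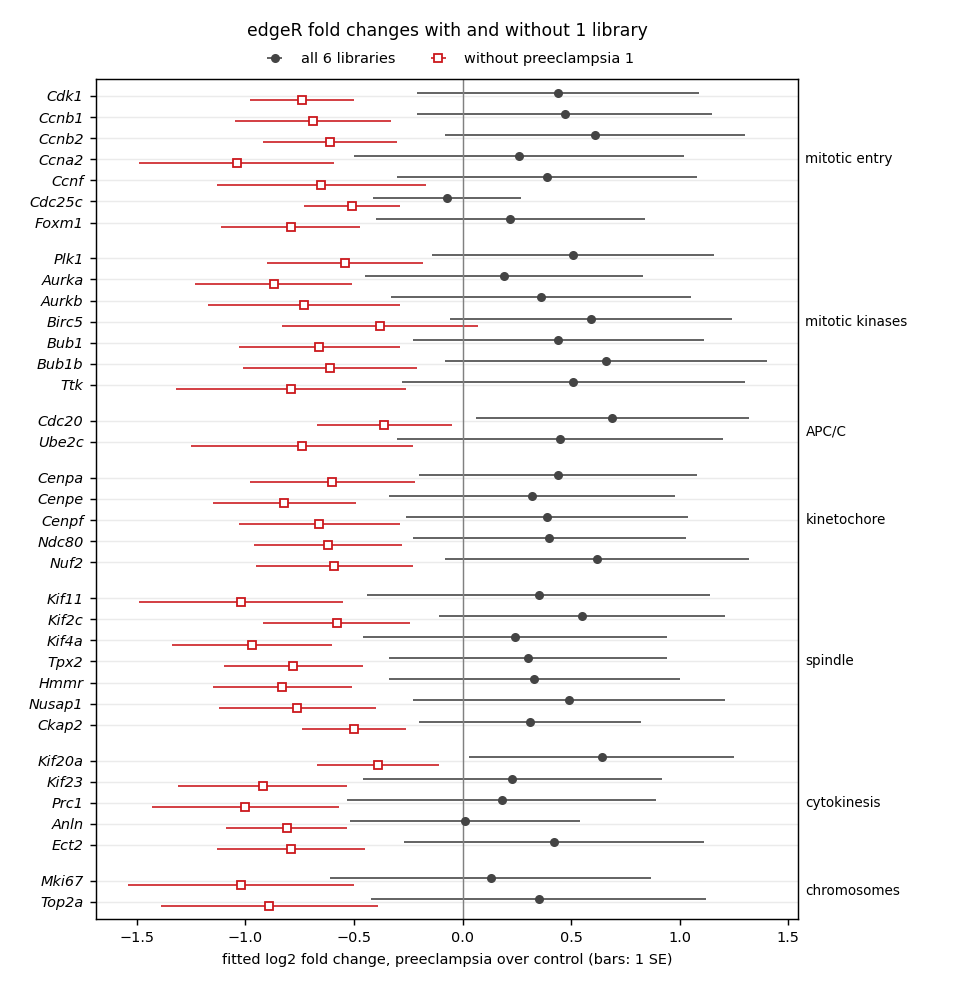
Fitted log2 fold change of preeclampsia over control by edgeR (x axis, bars of 1 SE) for each of the 35 members, with all 6 libraries (filled) and without preeclampsia library 1 (open). With all libraries 34 members lie above 0, and without that library all 35 lie below 0.

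The members were more spread within the groups than the tested genes as a whole. In the preeclampsia group the SD of log2 CPM over the 3 libraries had a median of 1.28 over the members, from 0.63 to 1.46, beside 0.29 over all tested genes. In the control group the median SD was 0.60 over the members, from 0.25 to 0.94, beside 0.27. Other cell cycle genes were spread too. The median SD was 1.16 and 0.68 in the preeclampsia and control groups for 60 other mitotic genes, and 0.92 and 0.71 for 38 S phase genes. The 95% interval of a member's log2 fold change accordingly reached a median of 1.62 to either side, from 0.81 for Cdc25c to 1.92 for Ttk, beside 0.64 over all genes. A fitted difference smaller than this reach would not have passed even an unadjusted threshold of 0.05. The adjusted threshold asked for more. Msln, a gene outside the members with a log2 fold change of 3.38 (95% interval 2.63 to 4.13), was not called (edgeR adjusted p = 0.228).

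Among the genes of mitotic entry, Cdk1, the kinase itself, had 10.1, 13.6 and 8.24 FPKM in the controls (libraries 1, 2 and 3 in this order, here and in the genes that follow), against 31.3, 5.9 and 6.5 in the preeclampsia libraries. Its 3 controls lay between preeclampsia library 1 above and the other 2 below, and the log2 fold change was 0.44 (SE 0.65, edgeR adjusted p = 0.887). Ccnb1, which encodes cyclin B1, was at 6.57, 10.1 and 4.38 FPKM in the controls and at 20.9, 3.95 and 4.45 in the preeclampsia libraries (0.47, SE 0.68, edgeR adjusted p = 0.885). Control library 3 and preeclampsia libraries 2 and 3 could hardly be told apart in it. Ccnb2, the gene of the second B-type cyclin, was at 8.29, 6.78 and 4.53 against 22.1, 4.04 and 4.33 FPKM (0.61, SE 0.69, edgeR adjusted p = 0.849). Here control library 1 stood above control library 2, unlike in Ccnb1.

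Ccna2, encoding cyclin A2, which acts from S phase to early mitosis, had the highest mean FPKM of this role group, at 23.5, 38.8 and 13.5 FPKM in the controls and 67.8, 12.1 and 11.8 in the preeclampsia libraries (log2 fold change 0.26, SE 0.76, edgeR adjusted p = 0.943). Foxm1, the transcription factor of the G2 programme, was at 4.06, 5.97 and 2.98 against 10.4, 2.54 and 2.3 FPKM (0.22, SE 0.62, edgeR adjusted p = 0.940). Preeclampsia library 1 was highest in it, and control libraries 1 and 2 came next. Ccnf, the F-box protein cyclin F, ran from 9.93 to 50.7 FPKM over the 6 libraries. Cdc25c had the flattest profile of the members, at 9.72, 14 and 10.7 FPKM in the controls and 17.1, 6.92 and 8.66 in the preeclampsia libraries, and it alone had a fitted log2 fold change below 0 with all libraries.

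**Figure D3:**
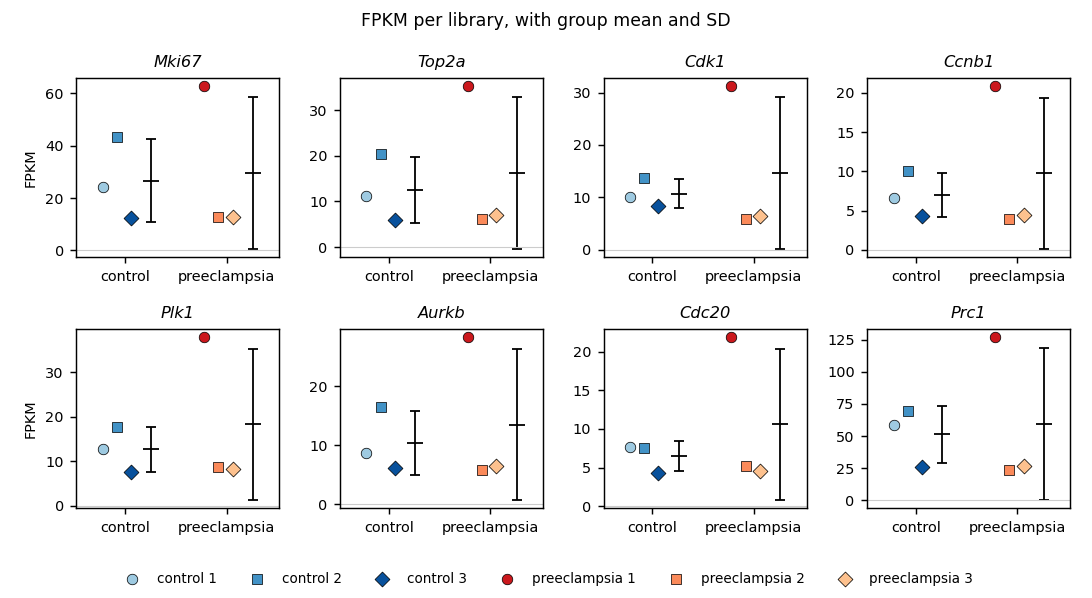
FPKM (y axis, from 0) of Mki67, Top2a, Cdk1, Ccnb1, Plk1, Aurkb, Cdc20 and Prc1 in the 3 control and 3 preeclampsia libraries, with the mean and SD of each group beside the points. In each gene preeclampsia library 1 is the highest point, and the other 2 preeclampsia libraries lie among or below the controls.

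The mitotic kinases and their partners followed. Plk1, the Polo kinase of centrosomes and spindle, was at 12.7, 17.7 and 7.58 FPKM in the controls and 37.9, 8.71 and 8.21 in the preeclampsia libraries (log2 fold change 0.51, SE 0.65, edgeR adjusted p = 0.865). Aurkb, the Aurora kinase of the chromosomal passenger complex, was at 8.63, 16.5 and 6.1 against 28.3, 5.72 and 6.41 FPKM (0.36, SE 0.69, edgeR adjusted p = 0.912). Control library 2 stood apart from the low libraries of both groups, and preeclampsia library 1 stood 0.76 log2 CPM above it. Birc5, encoding survivin of the same complex, was at 3.97, 7.28 and 2.73 against 14.2, 3.81 and 3.12 FPKM (0.59, SE 0.65, edgeR adjusted p = 0.848). In it preeclampsia library 2 came close to control library 1. Aurka, the spindle pole Aurora kinase, and the spindle checkpoint kinases Bub1, Bub1b and Ttk were also highest in preeclampsia library 1, at 19.9, 20.8, 17.5 and 5.29 FPKM, with control means of 8.36, 7.20, 4.94 and 1.66.

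Of the partners of the anaphase-promoting complex, Cdc20, its activator, was at 7.69, 7.52 and 4.25 FPKM in the controls and 21.9, 5.24 and 4.58 in the preeclampsia libraries. Its log2 fold change of 0.69 (SE 0.63, edgeR adjusted p = 0.813) had the smallest p of all members, and preeclampsia library 1 stood 1.41 log2 CPM above the next library, the widest such gap among the members. Ube2c, the ubiquitin-conjugating enzyme of the complex, ran from 0.75 to 5 FPKM.

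At the kinetochore, Cenpf, a large outer protein, was at 49.3, 49.2 and 22.9 FPKM in the controls and 112, 25.3 and 24.6 in the preeclampsia libraries (log2 fold change 0.39, SE 0.65, edgeR adjusted p = 0.900). Nuf2, a subunit of the NDC80 complex that grips microtubules, was at 6.05, 5.82 and 3.04 against 16.8, 3.53 and 2.9 FPKM (0.62, SE 0.70, edgeR adjusted p = 0.850). In both genes control libraries 1 and 2 were level and control library 3 lay with preeclampsia libraries 2 and 3. Ndc80, of the same complex, was at 5.75 and 5.76 FPKM in control libraries 1 and 2 and at 13.2 in preeclampsia library 1. Cenpe, the kinetochore motor, reached 91.6 FPKM in preeclampsia library 1. Cenpa, the centromeric histone, had the lowest mean FPKM of all members, from 0.49 to 2.42 FPKM. In log2 CPM it ran from 2.68 to 4.90, and Birc5 from 2.32 to 4.70.

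Of the spindle genes, Hmmr, a microtubule-binding protein of spindle poles, was at 21, 21 and 11.4 FPKM in the controls and 48.8, 9.4 and 10.1 in the preeclampsia libraries (log2 fold change 0.33, SE 0.67, edgeR adjusted p = 0.917). Kif2c, a kinesin that takes microtubules apart, was at 3.04, 3.91 and 1.88 against 9.24, 1.84 and 1.99 FPKM (0.55, SE 0.66, edgeR adjusted p = 0.861). Preeclampsia library 1 lay above all controls in both, and the other 2 lay below control library 3 in Hmmr and on either side of it in Kif2c. Kif11, the motor that pushes spindle poles apart, had the widest gap between preeclampsia library 1 and the other 2, at 33.3 against 4.94 and 6 FPKM. Ckap2, a microtubule-associated protein, had one of the narrowest, at 11.4 against 3.67 and 2.97 FPKM. Kif4a, Tpx2 and Nusap1, which act on chromosomes and spindle microtubules, peaked in preeclampsia library 1 at 9.06, 25.8 and 24.5 FPKM.

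Among the genes of cytokinesis, Prc1, which bundles microtubules at the spindle midzone, had the highest mean FPKM of all 35 members. In log2 CPM, Anln and Mki67 stood above it in every library. Prc1 was at 58.7, 69.2 and 26.2 FPKM in the controls and 127, 23.6 and 26.6 in the preeclampsia libraries (log2 fold change 0.18, SE 0.71, edgeR adjusted p = 0.959). Kif20a, a midzone kinesin that carries the passenger complex, was at 12.8, 10.1 and 7.12 against 32.6, 7.51 and 7.35 FPKM (0.64, SE 0.61, edgeR adjusted p = 0.823). In Prc1 the 2 higher controls stood well above the low libraries, and in Kif20a control library 2 was much nearer to them. Kif23, the centralspindlin motor, and Ect2, which activates RhoA at the cleavage site, ran from 3.37 to 16.9 and from 3.51 to 22.8 FPKM. Anln, an actin-binding protein of the cleavage furrow, had a fitted log2 fold change of 0.01, with 11.3, 14.2 and 7.63 FPKM in the controls and 21.4, 6.26 and 5.98 in the preeclampsia libraries.

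Mki67 and Top2a act on the chromosomes themselves, as the chromosome coat protein Ki-67 and as the topoisomerase that untangles sister DNA. Mki67 was at 24.4, 43.4 and 12.2 FPKM in the controls and 62.9, 12.7 and 12.8 in the preeclampsia libraries (log2 fold change 0.13, SE 0.74, edgeR adjusted p = 0.972). Top2a was at 11.1, 20.4 and 6.05 against 35.3, 6.07 and 7.04 FPKM (0.35, SE 0.77, edgeR adjusted p = 0.922). Control library 2 came nearer to preeclampsia library 1 in Mki67 than in most members, at 0.52 log2 CPM below it, against a median gap to the next library of 0.99. In the table's coordinates, whose sequence names are those of the mRatBN7.2 chromosomes, Mki67 spans 190496319 to 190522983 on chromosome 1, Top2a 83946186 to 83975694 on chromosome 10, Cdk1 19266226 to 19281417 on chromosome 20 and Ccnb1 31912190 to 31921163 on chromosome 2.

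The members did not agree on which of control libraries 1 and 2 was the higher. Control library 2 lay above control library 1 in 25 of 35 members, and the difference ran from -0.43 log2 CPM for Kif20a to 0.90 for Ttk. Below 0 were 10 members, described after their values were seen: Kif20a, Ccnb2, Cenpe, Ckap2, Nuf2, Cdc20, Cenpf, Ndc80, Hmmr and Cenpa, which hold all 5 kinetochore genes of the list. Above 0.5 were 9 members: Ccnb1, Ccna2, Kif11, Mki67, Birc5, Top2a, Aurkb, Ccnf and Ttk. The counting error of such a difference was between 0.02 and 0.09 log2 if counts are taken as independent, which leaves out library preparation and culture. Each side is 1 library, and nothing was tested. By role, the median difference was 0.77 for the 2 chromosome genes, and 0.47 for the 7 entry genes and for the 7 kinases and partners. It was 0.28 for the 7 spindle genes, 0.23 for the 5 cytokinesis genes, 0.14 for Cdc20 and Ube2c together and -0.09 for the kinetochore genes. For the 38 replication and S phase genes it was 0.71, with control library 2 higher in 37 of them. For 60 other mitotic genes it was 0.54, with control library 2 higher in 50. Kinetochore genes among these 60 lay on both sides. Spc24, Cenpm and Zwint were at -0.32, -0.29 and -0.02, while others such as Spc25, Cenpk and Knl1 were at 1.12, 0.86 and 0.79. The order seen in the 5 kinetochore members thus did not hold for kinetochore genes at large.

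**Figure D4:**
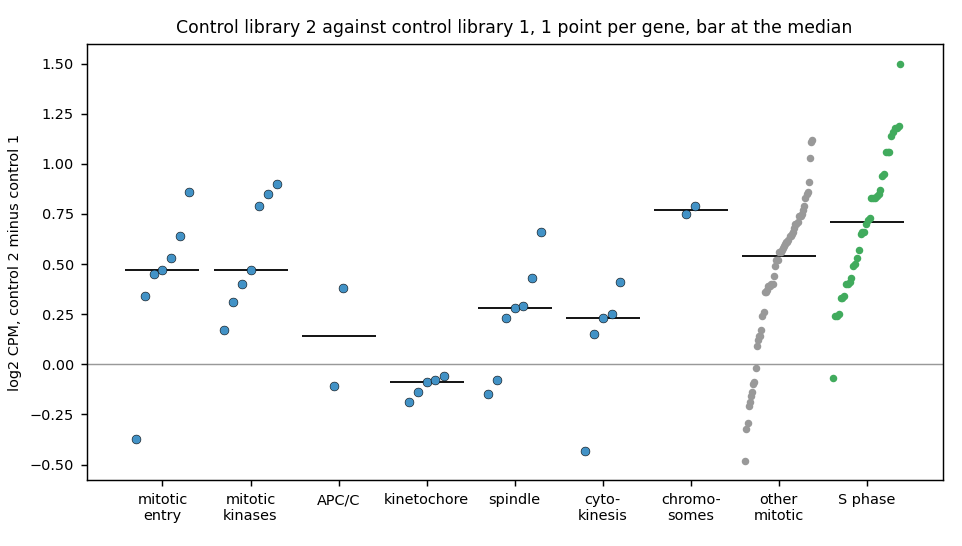
Difference in log2 CPM between control library 2 and control library 1 (y axis) for each gene, with the 35 members by role, 60 other mitotic genes and 38 S phase genes. Bars mark medians, which run from -0.09 for the kinetochore genes to 0.77 for Mki67 and Top2a among the members and stand at 0.71 for the S phase genes.

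Most other genes of the cell cycle were also highest in preeclampsia library 1. Of 60 other mitotic genes, among them condensins, further kinesins and kinetochore proteins, 0 were called by edgeR or DESeq2, 56 had a fitted log2 fold change above 0 and 4 below, with a median of 0.29. Preeclampsia library 1 was highest in 59 of them, and without it all 60 were below 0, with a median of -0.71. Smc4, a condensin subunit, was at 89, 143 and 67.9 FPKM in the controls and 206, 76.4 and 84.7 in the preeclampsia libraries. Zwint, a kinetochore protein, was the 1 gene not highest in preeclampsia library 1, at 114, 119 and 158 against 136, 94.9 and 100 FPKM, with control library 3 highest.

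In the 38 S phase genes, which make deoxynucleotides and copy DNA, 0 were called by edgeR or DESeq2, 31 were above 0 and 7 below, with a median log2 fold change of 0.15. Preeclampsia library 1 was highest in 35 and control library 2 in 3. Rrm1, the large subunit of ribonucleotide reductase, was at 363, 453 and 260 FPKM in the controls and 723, 239 and 254 in the preeclampsia libraries. Rrm2, its small subunit, was at 406, 606 and 240 against 826, 179 and 456 FPKM, so that preeclampsia libraries 2 and 3 differed more in it than in the members. The gap between preeclampsia library 1 and the mean of the other 2 had a median of 1.58 log2 CPM in the S phase genes, 2.01 in the other mitotic genes and 2.22 in the 35 members. The differences between these lists were not tested.

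**Figure D5:**
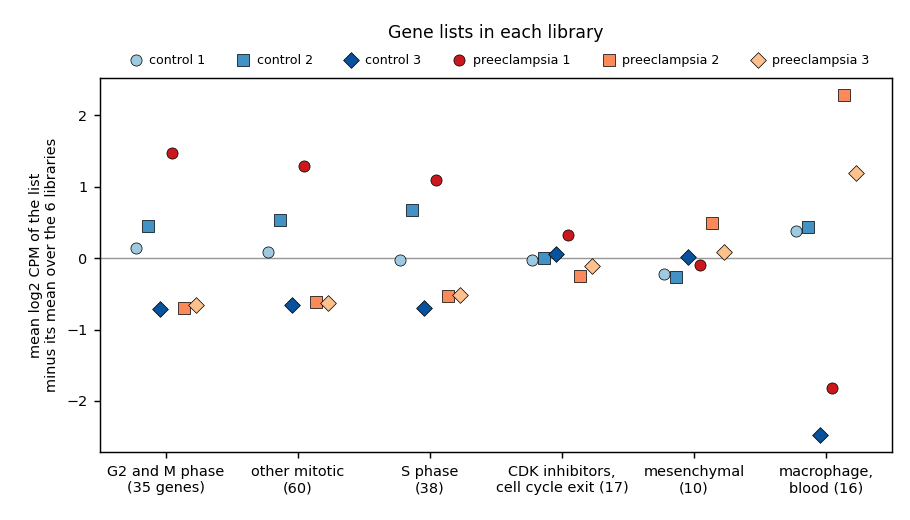
Mean log2 CPM of 6 gene lists in each library, minus the list's mean over the 6 libraries (y axis). The 3 cell cycle lists place preeclampsia library 1 highest and control library 3 with preeclampsia libraries 2 and 3 lowest, while the macrophage and blood cell list places control library 3 and preeclampsia library 1 lowest.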

How the data were processed

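RNA-seq libraries of cultured rat amniotic fluid cells were compared, 3 control and 3 preeclampsia. Per the file headers, the authors deposited counts and FPKM side by side in 1 table, a pair of columns per library. StringTie 2.1.6, HISAT2 2.2.1, FastQC and cutadapt 1.9 are listed in the submitters' processing notes, which do not say what each did. The counting step, the genome build and the use of the molecular identifiers that the labels' protocols mention are not given in the sources used here. If reads were not collapsed, PCR copies are in the counts.

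In R 4.3.3, edgeR 4.0.16 removed low genes (filterByExpr), computed TMM factors and ran its quasi-likelihood test on a model of the 2 groups. Calls were made at 0.05 after Benjamini-Hochberg adjustment across the 15776 genes kept. SE is the log2 fold change over the root of its F value. Log2 CPM used TMM factors and a prior count of 2. The edgeR fold change compares mean levels, so a high library weighs in it by its counts. FPKM values are printed as deposited, and they rank the members differently from log2 CPM. Alternatives were DESeq2 1.42.0, other scalings, the unfiltered table, a block for replicate number, each library left out (over the same genes), and limma 3.58.1 on log2(FPKM + 1) or log2(FPKM + 0.1) restricted to mean FPKM values of 1 or more, a scale on which fold changes of low genes are understated. The fits were tested on simulated data.

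The members, the gene lists and their roles were chosen with earlier results of these data known, so no list was given a p. Per-library values were set to be printed for the highest and the smallest-p member of each role group and for Mki67, Top2a, Cdk1, Ccnb1, Plk1, Aurkb and Foxm1, and for up to 4 most abundant genes of the other lists; further members are named by value or range after their values were seen. Lists of endothelial and mesothelial genes had 5 tested genes each, with 3 and 1 above 0, and DESeq2 called 0 and 2 of them; of the epithelial list 2 genes were tested, both below 0 and both called by DESeq2, and edgeR called 0 in all 3 lists. Every pair of libraries differed far beyond counting noise (chi-square per degree of freedom of 139.5 or more), so none was a duplicate. Promoter windows are RefSeq's (GRCr8), matched by gene identifier, and were not joined to the table's coordinates.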

Additional observations from a re-analysis of the deposited data

How the results depend on the processing

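No alternative called a member: the count of members called stayed at 0 under all 13. The number of members with a fitted log2 fold change above 0, 34 with all libraries, was 22 with the replicate block and 22 by limma with a pseudocount of 0.1, and ran from 0 to 35 with 1 library left out, the 0 being without preeclampsia library 1. The median log2 fold change, 0.39, ran from -0.74 without preeclampsia library 1 to 0.73 without preeclampsia library 2 or 3, and was 0.10 with the replicate block. DESeq2, both other scalings and no filter kept it between 0.38 and 0.41. It was 0.11 without control library 3. Deviations of same-numbered libraries correlated at 0.048, 0.041 and 0.010 over genes. Control libraries 1 and 2 correlated best with the preeclampsia library of their own number, and control library 3 with preeclampsia library 2, at 0.035. Correlations this weak cannot show whether the replicate numbers pair the libraries, so the blocked values serve as a comparison only.

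With the block, the fitted log2 fold changes of Ccna2, Foxm1, Hmmr, Prc1 and Mki67 changed sign, to -0.10, -0.07, -0.02, -0.10 and -0.07. By limma with a pseudocount of 1 they were -0.10, -0.02, -0.02, -0.13 and -0.10, and with 0.1 they were -0.12, -0.07, -0.04, -0.14 and -0.11. With 1 library left out, the 17 members with printed fold changes all changed sign without preeclampsia library 1, and Ccna2, Prc1 and Mki67 also without control library 3, at -0.04, -0.13 and -0.21. The lowest and highest values were -0.74 and 0.80 for Cdk1, -0.69 and 0.83 for Ccnb1, -0.61 and 0.98 for Ccnb2, -1.04 and 0.70 for Ccna2, -0.79 and 0.56 for Foxm1, -0.54 and 0.86 for Plk1, -0.73 and 0.86 for Aurkb, -0.38 and 1.06 for Birc5, and -0.36 and 1.04 for Cdc20. They were -0.66 and 0.73 for Cenpf, -0.59 and 1.00 for Nuf2, -0.58 and 0.90 for Kif2c, -0.83 and 0.69 for Hmmr, -0.39 and 0.97 for Kif20a, -1.0 and 0.55 for Prc1, -1.02 and 0.66 for Mki67, and -0.89 and 0.89 for Top2a. The order of libraries was recomputed after the data were seen, on deposited FPKM and on CPM without TMM factors, and the 35 and 34 members held in both.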

Other observations

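Genes that hold the cell cycle back were divided between those highest in preeclampsia library 1 and others. Of 17 cyclin-dependent kinase inhibitors and genes of cell cycle exit, preeclampsia library 1 was the highest in 6, against 18.4% of all tested genes, and the mean of the list was 4.99 log2 CPM there and between 4.41 and 4.72 in the other 5 libraries. The fitted log2 fold change was above 0 in 8 and below 0 in 9, against 51.7% above 0 over all genes, with a median of -0.05. edgeR called 0 of them, against 0% of all genes, and 4 had an unadjusted p under 0.05, against 9.19% of all genes. Cdkn1a, the p21 inhibitor, had 39.6, 35.3 and 39.9 FPKM in the controls (libraries 1, 2 and 3) against 26.1, 31.9 and 27.8 in the preeclampsia libraries (log2 fold change -0.40, SE 0.14, edgeR adjusted p = 0.481). Ccng1, the cyclin G1 gene and a p53 target, was at 310, 282 and 380 against 190, 186 and 254 FPKM (-0.60, SE 0.18, edgeR adjusted p = 0.470). In both the preeclampsia libraries all lay below the controls, and preeclampsia library 1 lay with the other 2. The gap in Cdkn1a was narrow, with control library 2 at 8.03 and preeclampsia library 2 at 7.97 log2 CPM. The groups did not overlap in 4 of the 17 genes, against 15.6% of all tested genes. Cdkn1b and Cdkn1c went the other way, with log2 fold changes of 0.85 and 1.09 (edgeR adjusted p = 0.473 and 0.698). Others stood above preeclampsia libraries 2 and 3 in preeclampsia library 1, by 1.94 log2 CPM for Rbl1 (p107), 1.73 for Gas1, 1.6 for Cdkn2c (p18), 1.53 for Pkmyt1 and 1.07 for Cdkn2d (p19), beside a median of 2.22 in the mitotic members. Pkmyt1 was nevertheless highest in control library 2, while Cdkn1c was highest in preeclampsia library 1. Wee1, which like Pkmyt1 holds CDK1 inactive, was at 60.6, 82.4 and 49.4 against 112, 37.4 and 34.3 FPKM. DESeq2 called 1 of the 17, against 2.33% of all genes: Cdkn2b (log2 fold change -1.04, adjusted p = 0.005).

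Cdk6, a kinase that D cyclins activate, was at 208, 218 and 135 FPKM in the controls and 120, 96.8 and 90.9 in the preeclampsia libraries (log2 fold change -0.85, SE 0.22, edgeR adjusted p = 0.441), with no overlap between the groups, as in 15.6% of all tested genes. DESeq2 called it (adjusted p = 0.042), and over the alternatives its adjusted p ran from there to 0.796. Of the 5 genes of D cyclins and their kinases 4 had a fitted log2 fold change below 0 and 1 above, against 51.7% above 0 over all genes. Among the 4, Ccnd2 and Ccnd3 were at -0.06 and -0.02. edgeR called 0, against 0% of all genes, and 1 had an unadjusted p under 0.05, against 9.19%. Without preeclampsia library 1, 2 of the 5 were below 0, and the median was 0.07. Ccnd1, the cyclin D1 gene, was at 116, 140 and 118 against 138, 70.1 and 68.5 FPKM, so preeclampsia library 1 lay with the controls in it.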
